A study of Homo sapiens with 4 samples.

Results

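The laminin chain genes were examined in bulk RNAseq of MV3 spheroids, separated into core and invasion zone. The members were 9 listed genes out of 56306 gene rows, found by their symbol in the table, namely the alpha chain genes LAMA1, LAMA2, LAMA3, LAMA4 and LAMA5, the beta chain genes LAMB1, LAMB2 and LAMB3, and the gamma chain gene LAMC1. MV3 is an established, highly metastatic human melanoma line, and all samples carried the nuclear reporter H2B-GFP. Spheroids of 50000 cells and 1 mm diameter were grown in collagen I for 2 days without further treatment, after which a 1 mm punch removed the core and a 3 mm punch the invasion zone around it. Each zone had 2 libraries, numbered 1 and 2. The punch cut vertically, so the core samples could also hold invading cells from above and below the core. The sources do not say whether the libraries of a zone came from separate cultures, and the p-values therefore measure the spread between these libraries, which may be technical.

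Laminins are large secreted proteins of the basement membrane, the thin matrix sheet under epithelia and around vessels, nerves and muscle. Each laminin is a trimer of 1 alpha, 1 beta and 1 gamma chain held together by a coiled coil. Beta and gamma chains pair inside the cell, and the trimer is secreted once an alpha chain has joined. Trimers are named by their chain numbers, so that laminin 511 holds the products of LAMA5, LAMB1 and LAMC1. The end of the alpha chain binds integrins and dystroglycan on the cell surface, and melanoma cells can make laminins as well as attach to them.

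Core libraries held more transcript of 8 of the 9 chain genes than invasion zone libraries, and the fitted difference was farthest from 0 for LAMA5 and LAMB2. In the fit, the core held 2.87 times as much LAMA5 and 2.85 times as much LAMB2 as the invasion zone, against 1.44 times for LAMA4, 1.50 times for LAMB1 and 1.41 times for LAMB3. None of these differences passed the test across all genes. LAMA1 was close to absent from all libraries. Counts of 2 libraries per zone were compared by the quasi-likelihood test of edgeR, without a replicate term and with Benjamini-Hochberg adjustment over 15529 genes. Calls required a difference of 2-fold or more with an adjusted p below 0.05.

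Depth differed between the replicate numbers rather than between the zones. The libraries of replicate 1 held 36363358 (core) and 37591782 counts (invasion zone), and those of replicate 2 held 14983135 and 11789243 counts. Every chain was therefore also compared within each replicate number. The melanocyte genes SOX10 and TYR had 0 counts in all 4 libraries and S100B had 0 to 3, while the receptor tyrosine kinase AXL had 9480 to 45853. Of the pigment genes MITF had 30 to 82, PMEL 8 to 17 and MLANA 9 to 35 counts, so that several defining markers of the lineage were at or near 0 in both zones. This did not hold for all of the listed markers, as MC1R had 366 to 1002 counts and MCAM 373 to 1076. The 14 genes of this marker list summed to 678.1 to 686.0 CPM in the core and 1191 to 1284 CPM in the invasion zone. AXL, which is not a pigment gene, alone had 628.8 to 633.3 CPM and 1121 to 1224 CPM. The sum thus mostly gives the AXL level. Of the markers of other cell types, CD3E and AIF1 (leukocytes), DCN and LUM (fibroblasts) and KDR (endothelium) had 0 counts in all libraries. The summed level of the 7 endothelial markers was 8.424 to 19.53 CPM in the core and 0.9257 to 6.218 CPM in the invasion zone, nearly all of it from PECAM1, and that of the 7 fibroblast markers was 150.6 to 213.0 against 51.42 to 107.9 CPM, most of it from PDGFRA and POSTN. The 7 leukocyte markers summed to 1.459 to 1.956 CPM in the core and 0.4208 to 0.4804 CPM in the invasion zone, and the 7 epithelial markers to 145.5 to 173.1 and 126.3 to 143.8 CPM. The part of these marker levels in the laminin differences was not tested.

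LAMC1 encodes gamma-1, the gamma chain shared by most laminins, and was the most abundant chain gene. It had 1632 CPM (counts scaled by trimmed means to a common library size) in core replicate 1, 1207 in core replicate 2, 1011 in invasion zone replicate 1 and 542.7 in invasion zone replicate 2. The zones did not overlap, although the gap between the lowest core and the highest invasion zone library was smaller than the gap between the invasion zone libraries. The core mean of 1420 ± 300.4 CPM (SD, n = 2) compared with 776.9 ± 331.1 CPM for the invasion zone, at a log2 fold change of -0.87 (standard error 0.34, edgeR adjusted p = 0.187). LAMC1 ranked above 98.7% of the tested genes even in the library where it was lowest. The gene lies on chromosome 1 of GRCh38, from 183023420 to 183145592 on the plus strand.

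Among the alpha chain genes, LAMA5 was the most abundant in terms of CPM. Its product, alpha-5, is the alpha chain of laminins 511 and 521 and is widespread in adult basement membranes. LAMA5 had 964.0 CPM in core replicate 1, 662.0 in core replicate 2, 418.0 in invasion zone replicate 1 and 148.0 in invasion zone replicate 2. The groups did not overlap, but the invasion zone libraries differed from each other by 2.824-fold, about as much as the zones did. The core mean of 813.0 ± 213.6 CPM (SD, n = 2) compared with 283.0 ± 190.9 CPM for the invasion zone, at a log2 fold change of -1.52 (standard error 0.50, edgeR adjusted p = 0.150). LAMA5 lies on chromosome 20, from 62307955 to 62367312 on the minus strand. Of its 14291 exonic bases, 362 overlap genes on the opposite strand (ADRM1 and LAMA5-AS1), so some of its reads could have been dropped or assigned elsewhere, and LAMA5-AS1 itself had at most 4 counts in any library.

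LAMA4 encodes alpha-4, a short alpha chain without the N-terminal arm, found in basement membranes of vessels and mesenchymal tissue. It had 212.0 and 208.5 CPM in core replicates 1 and 2, 179.7 in invasion zone replicate 1 and 112.4 in invasion zone replicate 2. The core libraries were almost equal, and invasion zone replicate 1 was closer to them than to invasion zone replicate 2. The log2 fold change was -0.52 (standard error 0.24, edgeR adjusted p = 0.236). LAMA4 lies on chromosome 6, from 112107931 to 112254939 on the minus strand, and shares 206 of its 11983 exonic bases with a gene on the opposite strand.

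The remaining alpha chain genes were far less abundant. LAMA2, the alpha chain of muscle and peripheral nerve, had 27.3, 17.58, 14.22 and 7.406 CPM in core replicates 1 and 2 and invasion zone replicates 1 and 2. These levels did not overlap between the zones, with a log2 fold change of -1.02 (standard error 0.37, edgeR adjusted p = 0.171). LAMA3, an alpha chain of epidermal laminin, rested on 135, 45, 87 and 15 counts in the same order, or 3.772, 2.985, 2.322 and 1.262 CPM (log2 fold change -0.82, standard error 0.38, edgeR adjusted p = 0.246). LAMA1, the alpha chain of the early embryo, had 4 counts in invasion zone replicate 1 and 0 in the other 3 libraries. It was below the low-count filter and was not tested. A count of 0 allows up to 3 counts, or 0.0838 to 0.252 CPM depending on the library, and this limit covers counting error only. LAMA2 lies on chromosome 6 from 128883138 to 129516566 (plus strand), LAMA3 on chromosome 18 from 23689453 to 23956222 (plus strand) and LAMA1 on chromosome 18 from 6941742 to 7117797 (minus strand).

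For the beta chains, LAMB2 and LAMB1 exchanged their order between the zones. LAMB2 encodes beta-2, known from the neuromuscular synapse and the kidney filter. It had 768.0 CPM in core replicate 1, 441.8 in core replicate 2, 306.3 in invasion zone replicate 1 and 117.8 in invasion zone replicate 2. The groups did not overlap, and the spread within each zone was wide, at 1.738-fold in the core and 2.6-fold in the invasion zone. The core mean of 604.9 ± 230.7 CPM (SD, n = 2) compared with 212.1 ± 133.3 CPM for the invasion zone, at a log2 fold change of -1.51 (standard error 0.50, edgeR adjusted p = 0.151). LAMB2 lies on chromosome 3, from 49121114 to 49133118 on the minus strand.

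LAMB1 encodes beta-1, the widely expressed beta chain. Its level was 466.4 CPM in core replicate 1, 378.5 in core replicate 2, 363.8 in invasion zone replicate 1 and 198.0 in invasion zone replicate 2. The highest invasion zone library was thus just below the lowest core library, and the log2 fold change was -0.59 (standard error 0.31, edgeR adjusted p = 0.290). LAMB1 exceeded LAMB2 in both invasion zone libraries and was below it in both core libraries. It lies on chromosome 7, from 107923799 to 108003213 on the minus strand, where 484 of its 18592 exonic bases overlap the opposite strand, DLD included. LAMB3, a beta chain of epidermal laminin, had 41.13, 30.38, 25.91 and 24.91 CPM in core replicates 1 and 2 and invasion zone replicates 1 and 2. Its invasion zone libraries were almost equal, with a log2 fold change of -0.50 (standard error 0.20, edgeR adjusted p = 0.198). LAMB3 lies on chromosome 1, from 209614870 to 209652425 on the minus strand.

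**Figure D1:**
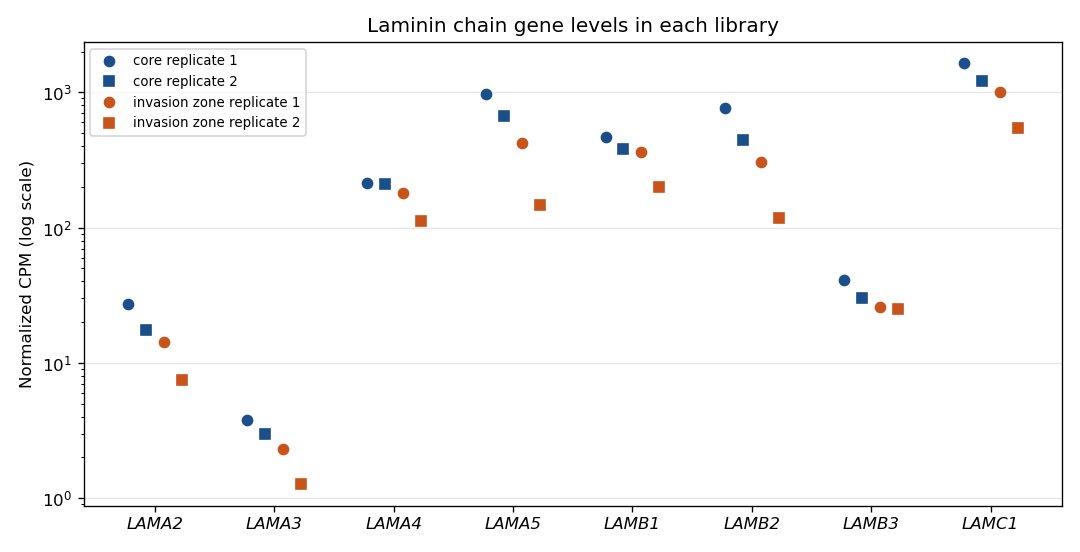
Normalized CPM (vertical log axis) of 8 listed laminin chain genes in each of the 4 libraries, with the core in blue, the invasion zone in orange, replicate 1 as circles and replicate 2 as squares. For every gene shown, both orange points lie below both blue points, and the invasion zone replicate 2 library is the lowest.

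The promoters of 4 of these genes are shown to set the pair that differed most between the zones, LAMA5 and LAMB2, beside the abundant alpha and beta chain genes that differed least, LAMA4 and LAMB1. Each sequence is RefSeq's, on GRCh38.p14, and runs on the minus strand from 250 bases before to 50 bases after the gene start in RefSeq. This start is the GENCODE one for LAMA5, and for LAMB2, LAMB1 and LAMA4 it lies inside the GENCODE gene given above, so that the LAMA4 sequence falls wholly within it. Capitals mark the GC box, searched as GGGCGG on both strands. The regions are chr20:62367263-62367562 for LAMA5, chr3:49133001-49133300 for LAMB2, chr6:112254518-112254817 for LAMA4 and chr7:108003112-108003411 for LAMB1.
LAMA5: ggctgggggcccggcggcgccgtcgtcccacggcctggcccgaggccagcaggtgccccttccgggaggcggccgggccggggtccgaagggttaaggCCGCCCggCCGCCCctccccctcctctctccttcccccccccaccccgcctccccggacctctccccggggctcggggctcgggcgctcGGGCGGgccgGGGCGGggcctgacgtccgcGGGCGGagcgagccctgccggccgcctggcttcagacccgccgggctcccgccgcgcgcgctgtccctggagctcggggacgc
LAMB2: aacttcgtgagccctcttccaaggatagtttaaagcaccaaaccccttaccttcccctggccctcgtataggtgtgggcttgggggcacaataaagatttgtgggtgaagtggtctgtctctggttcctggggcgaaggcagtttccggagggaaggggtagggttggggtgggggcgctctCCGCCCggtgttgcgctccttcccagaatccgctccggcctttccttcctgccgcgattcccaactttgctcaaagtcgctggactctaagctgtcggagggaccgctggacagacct
LAMA4: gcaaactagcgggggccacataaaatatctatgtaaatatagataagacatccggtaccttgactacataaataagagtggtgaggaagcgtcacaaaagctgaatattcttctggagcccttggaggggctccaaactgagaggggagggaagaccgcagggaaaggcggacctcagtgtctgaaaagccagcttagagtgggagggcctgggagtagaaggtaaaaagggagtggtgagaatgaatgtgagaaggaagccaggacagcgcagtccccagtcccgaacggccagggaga
LAMB1: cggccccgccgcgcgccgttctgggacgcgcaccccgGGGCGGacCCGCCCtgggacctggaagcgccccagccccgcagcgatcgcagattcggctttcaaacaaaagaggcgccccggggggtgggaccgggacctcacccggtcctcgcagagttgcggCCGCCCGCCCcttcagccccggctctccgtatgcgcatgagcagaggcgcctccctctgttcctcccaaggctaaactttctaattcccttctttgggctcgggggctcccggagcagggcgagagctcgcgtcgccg

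The GC box was found 5 times in the LAMA5 promoter, 4 times in that of LAMB1 with 2 of them overlapping, once in that of LAMB2 and not in that of LAMA4. It occurs in 45.0% of the 35116 promoters of the same length. The hypoxia response core ACGTG, present in 21.4% of them on either strand, and the TATA motif TATAAA, present in 11.5%, were not found in these 4 sequences. GC content was 82.7% for the LAMA5, 58.7% for the LAMB2, 51.3% for the LAMA4 and 71.0% for the LAMB1 promoter. These 4 genes were chosen by their zone difference, and a relation between promoter sequence and zone difference was not tested.

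Within replicate 1, the log2 ratio of invasion zone over core lay between -1.33 (LAMB2) and -0.24 (LAMA4) over the 8 tested chains, with a median of -0.70. Within replicate 2, it lay between -2.16 (LAMA5) and -0.29 (LAMB3), with a median of -1.19. Over all genes tested the median was within 0.01 of 0 in both replicates. The ratio was more negative in replicate 2 for 7 of the 8 chains, LAMB3 being the exception. For LAMA5 the invasion zone had 43.4% of the core level in replicate 1 and 22.4% in replicate 2, and for LAMB2 it had 39.9% and 26.7%. For LAMA4 the corresponding values were 84.8% and 53.9%, for LAMB1 78.0% and 52.3%, and for LAMC1 61.9% and 44.9%. Exact 95% intervals from the counts excluded no difference for each of the 8 chains in each replicate, the closest to 0 being that of LAMB3 in replicate 2, from -0.50 to -0.07 (log2). These intervals cover counting error only and not the difference between cultures.

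**Figure D2:**
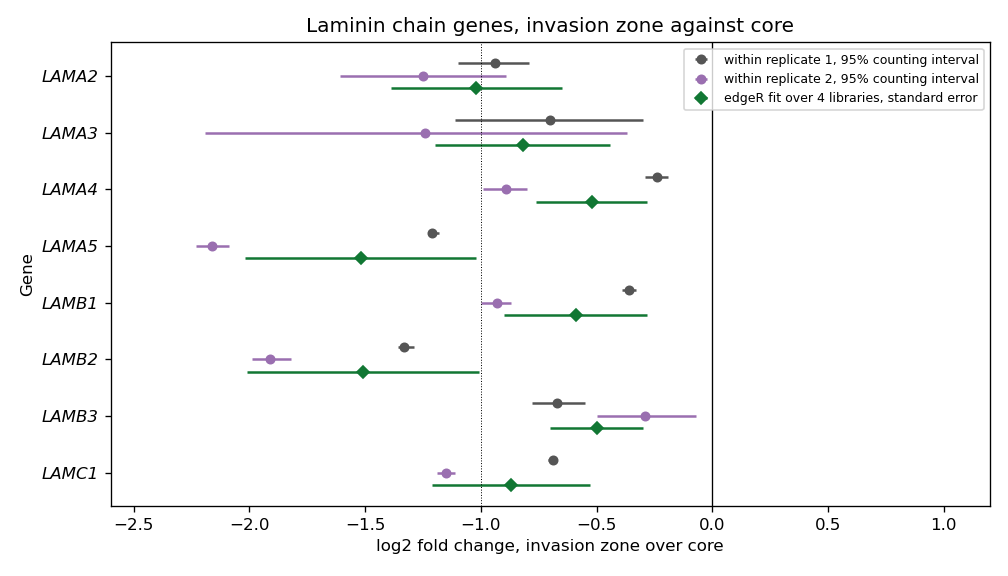
Log2 ratio of invasion zone to core (horizontal axis) for 8 listed laminin chain genes, within replicate 1 (grey) and replicate 2 (purple) with exact 95% counting intervals, and from the edgeR fit over 4 libraries with its standard error (green). All values are below 0, and LAMA5 and LAMB2 lie farthest to the left, at -1.52 and -1.51 in the fit. The dotted line marks a 2-fold lower level.

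For 8 of the 8 tested chains each invasion zone library was lower than either core library, against 30.3% of all genes tested. The fitted log2 fold change was negative for 8 of 8, against 50.6% of all genes, and -1 or lower for 3 of 8 (LAMA5, LAMB2 and LAMA2), against 8.49%. The median over the 8 chains was -0.84, beside -0.008 over all genes. The edgeR test called 0 of the 8, and it called 0.0% of all genes in either direction. Without adjustment of the p, 3 of the 8 passed 0.05 and 2-fold on the lower side (6.41% of all genes) and 0 on the higher side (3.19%). At any fold size these were 4, with LAMC1 added (13.2% of all genes), and 0 (12.3%). DESeq2, the tool the study used, called LAMA5 and LAMB2 lower (adjusted p = 0.00709 and 0.00783) with 3.44% of all genes lower and 2.27% higher, and limma voom called 0 chains. With the replicate number as a term, edgeR called 3 of the 8 lower, LAMA2, LAMA5 and LAMB2 (7.4% of all genes), and 0 higher (3.79%), and at any fold size 8 of 8 lower (20.1%) and 0 higher (20.0%), with adjusted p from 0.00013 to 0.0429. The paper's methods describe punching out a core and then taking the invasion zone that belonged to it. The labels do not say whether a number marks such a shared spheroid, so the fit with this term is given as an alternative. Single libraries moved these values, and without invasion zone replicate 2 no chain had a log2 fold change of -1 or lower. The log2 fold change of LAMA5 was -0.96 without invasion zone replicate 2 and -2.46 without invasion zone replicate 1, and that of LAMB2 was -0.98 and -2.36. In the same order, it was -0.49 and -1.39 for LAMC1, -0.22 and -1.10 for LAMB1, -0.23 and -0.91 for LAMA4, and -0.67 and -1.61 for LAMA2, which was at -0.65 without core replicate 1.

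Transcript composition differed between the chains. The GC content of the canonical transcript was 66.4% for LAMA5, 60.3% for LAMB2 and 59.5% for LAMB3, and 45.1% to 50.7% for the other 5 tested chains. Over all genes, the 2596 genes with at least 59% GC had a median log2 fold change of -0.16 and the 3240 genes between 45% and 51% had one of 0.01. When the trend of each library on GC content and transcript length was removed, the log2 fold change was -1.21 for LAMA5, -1.31 for LAMB2, -0.49 for LAMA4, -0.53 for LAMB1 and -0.33 for LAMB3. LAMA5 and LAMB2 had the lowest values of the 8 tested chains before and after this correction, which was chosen after seeing the data. Over all genes, the correlation of the log2 fold change with GC content was -0.17 before it and -0.065 after it. The part of GC content in the zone differences was not tested. In bulk RNA, fewer cells that express a gene and less RNA per cell cannot be told apart.

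The make-up of the alpha and beta chain transcripts also differed between the zones, compared here per kilobase of the canonical transcript. LAMA5 made up 72.2% and 65.2% of the summed alpha chain level in core replicates 1 and 2, and 57.9% and 44.1% in invasion zone replicates 1 and 2. LAMA4 made up 25.1% and 32.5% in the core and 39.4% and 52.9% in the invasion zone. LAMA4 was therefore the less abundant of the pair in 3 libraries and the more abundant in invasion zone replicate 2. LAMB2 made up 59.3% and 51.0% of the beta chain level in the core and 43.2% and 33.4% in the invasion zone, and LAMB1 made up 36.2% and 44.0% in the core and 51.7% and 56.6% in the invasion zone. For each of these 4 genes the shares did not overlap between the zones, but the genes form 2 pairs that make up most of their class. Within a pair, a higher share of one gene goes with a lower share of the other. The gene with the lower share in the invasion zone was the GC-richer one in each pair. Its transcript had 66.4% against 45.1% GC for LAMA5 and LAMA4, and 60.3% against 49.4% for LAMB2 and LAMB1. The shares were not corrected for GC content. With 2 libraries per zone an exact permutation test cannot go below p = 0.333, and none was run on these shares.

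The ratio of counts of 2 chains within a library restates these shares, because it rests on the same counts. Like the shares, it does not depend on library scaling. LAMA5 had 4.55 and 3.18 counts per LAMA4 count in core replicates 1 and 2, and 2.33 and 1.32 in invasion zone replicates 1 and 2. LAMB2 had 1.65 and 1.17 counts per LAMB1 count in the core, and 0.842 and 0.595 in the invasion zone. The log2 change of the LAMB2 to LAMB1 ratio was -0.97 within replicate 1 (95% counting interval -1.01 to -0.92) and -0.97 within replicate 2 (-1.08 to -0.86). That of the LAMA5 to LAMA4 ratio was -0.97 (-1.02 to -0.91) and -1.27 (-1.39 to -1.15). The difference between these chains was not tested across the libraries. As a share of the counts of both genes, LAMA4 took 18.0% in core replicate 1 (exact 95% binomial interval 17.7% to 18.4%), 24.0% in core replicate 2 (23.2% to 24.7%), 30.1% in invasion zone replicate 1 (29.5% to 30.7%) and 43.1% in invasion zone replicate 2 (41.4% to 44.9%).

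**Figure D3:**
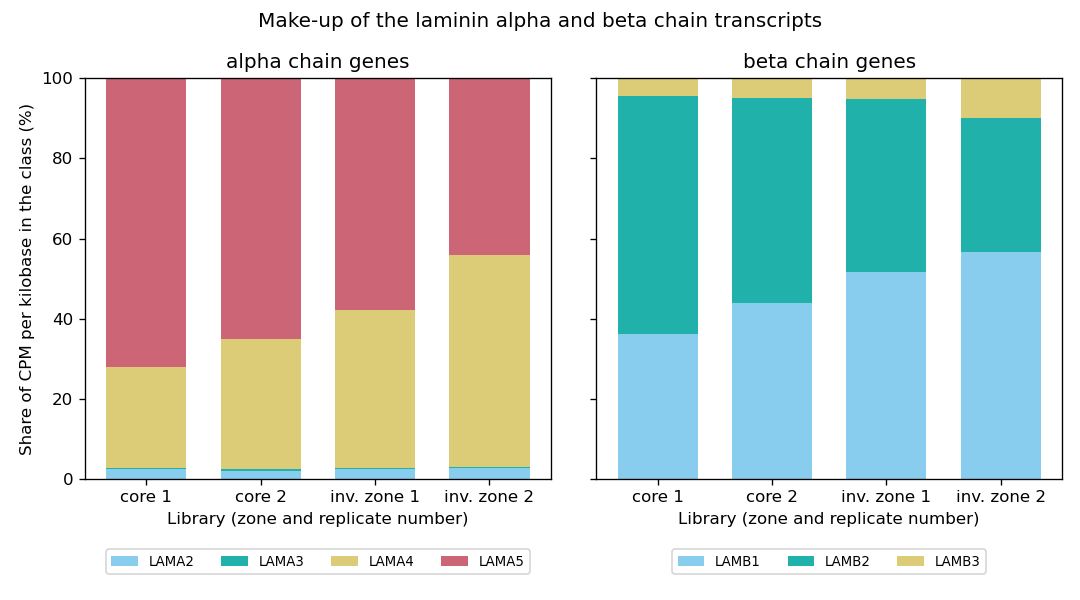
Share of each alpha chain gene (left) and beta chain gene (right) in the summed level of its class, in % of CPM per kilobase, for the 4 libraries. The LAMA4 share is 25.1% and 32.5% in the core and 39.4% and 52.9% in the invasion zone, and the LAMB1 share is 36.2% and 44.0% against 51.7% and 56.6%.

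Next, the levels per kilobase were set against the trimers that the chains allow. LAMC1 was the highest chain gene on this scale in every library, at 205.9, 152.3, 127.5 and 68.45 CPM per kilobase in core replicates 1 and 2 and invasion zone replicates 1 and 2. In the core it was followed by LAMB2 (134.9 and 77.62), whose level overlapped with that of LAMB1 (82.55 and 67.0) and LAMA5 (84.37 and 57.94), and then by LAMA4 (29.34 and 28.84). In the invasion zone it was followed by LAMB1 (64.39 and 35.05), LAMB2 (53.81 and 20.7), LAMA5 (36.58 and 12.96) and LAMA4 (24.87 and 15.54), and each of these neighbours overlapped with the next over the 2 libraries. LAMB3 (6.206 to 10.25), LAMA2 (0.7638 to 2.816) and LAMA3 (0.1185 to 0.3542) were lower in all libraries.

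For laminins 511 and 521, the chain with the lowest level was LAMA5 in every library, except for laminin 511 in core replicate 1, where LAMB1 was slightly lower. For laminins 411 and 421 it was LAMA4 in every library. The lowest chain of laminin 521 was at 84.37 and 57.94 CPM per kilobase in the core and 36.58 and 12.96 in the invasion zone, whereas that of laminin 411 was at 29.34 and 28.84 in the core and 24.87 and 15.54 in the invasion zone. LAMB4 had 0 counts in all libraries and LAMC3 had 1 in each core library and 0 in the invasion zone. These are transcript levels, and no laminin protein or trimer was measured.

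The LAMC1 level per kilobase was 1.76 and 1.71 times the summed alpha chain level in core replicates 1 and 2, and 2.02 and 2.33 times in invasion zone replicates 1 and 2. The summed beta chain level was 1.95 and 1.71 times that of the alpha chains in the core and 1.97 and 2.11 times in the invasion zone. The alpha chain transcripts together were thus scarcer than LAMC1 or the beta chains in all 4 libraries.

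The genes whose levels over the 4 libraries were most like those of the chain with the highest mean CPM in each class were found by the root mean square difference of the centred log2 CPM. For the beta chains this is LAMB2, although LAMB1 exceeded it in both invasion zone libraries. For LAMA5 these were PCDHB11 (0.027) and LMOD1 (0.028), and for LAMB2 they were LXN (0.026) and MEGF6 (0.042). LAMA5 and LAMB2 themselves differed by 0.105, less than either differed from any other member. For LAMC1 the nearest were MROH6 (0.028) and SLC44A1 (0.030), and the nearest laminin chain was LAMA3 (0.043). Of 15521 other genes, 20 lay within 0.1 of LAMA5, 20 of LAMB2 and 86 of LAMC1.

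To place the chains in their matrix, 25 genes for basement membrane partners were examined. Of these, 14 were tested and 0 were called, as were 0.0% of all genes in either direction. At an unadjusted edgeR p below 0.05 and 2-fold, 5 were lower (6.41% of all genes), FBLN1 among them, and 0 higher (3.19%). The fitted log2 fold change was negative for 13 of the 14, against 50.6% of all genes, with a median of -0.78, and for 11 of them neither invasion zone library reached the lower core library, against 30.3%. The highest value was that of COL17A1, a hemidesmosome collagen (0.56, standard error 0.21). The lowest was that of FBLN1, a fibulin, with counts of 57 and 29 (core) and 8 and 2 (invasion zone). FBLN1 passed the low-count filter only through the core, where it was higher, so no fold is given. It is among the 13 negative genes and the 11 without overlap, and it enters the median. The type IV collagen genes COL4A1 and COL4A2, which form the usual network of basement membranes, had 0 to 2 and 0 to 5 counts in the 4 libraries. COL4A5, in contrast, had 171.7 and 126.0 CPM in the core and 76.22 and 48.05 CPM in the invasion zone. The linker genes between laminin and this network also differed from each other. NID1 (nidogen) had 60.66 and 48.35 CPM in the core and 58.55 and 48.22 CPM in the invasion zone, with overlapping groups. The other nidogen gene, NID2, was scarcer, with 8.02 and 4.643 against 2.455 and 2.104 CPM, which did not overlap, and AGRN (agrin) had 194.7 and 142.4 against 135.7 and 73.55 CPM.

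The laminin receptors were divided in direction. Of 18 genes for laminin receptors and their partners, 17 were tested and 0 were called (0.0% of all genes). At an unadjusted edgeR p below 0.05 and 2-fold, 2 were lower (6.41% of all genes) and 0 higher (3.19%). The log2 fold change was negative for 9 and positive for 8, and the median was -0.18. Both invasion zone libraries were below both core libraries for 7 of them and above for 5, against 30.3% and 28.1% of all genes. ITGA6, the integrin alpha-6 subunit that binds laminins, had 466.2 and 496.1 CPM in the core and 631.5 and 630.9 CPM in the invasion zone (log2 fold change 0.39, standard error 0.14, edgeR adjusted p = 0.169). ITGA3, the alpha-3 subunit with affinity for laminins 511 and 521, had 726.0 and 611.6 CPM in the core and 519.0 and 360.0 CPM in the invasion zone (-0.61, standard error 0.22, adjusted p = 0.174). Their shared partner ITGB1 differed little, with 1121 and 1142 CPM in the core and 1214 and 1209 CPM in the invasion zone. The highest log2 fold change of the list was that of SDC1, a syndecan (0.76, standard error 0.22), and the lowest that of BCAM, an immunoglobulin-type receptor for alpha-5 (-1.24, standard error 0.31), which had only 1.851 to 6.092 CPM.

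**Figure D4:**
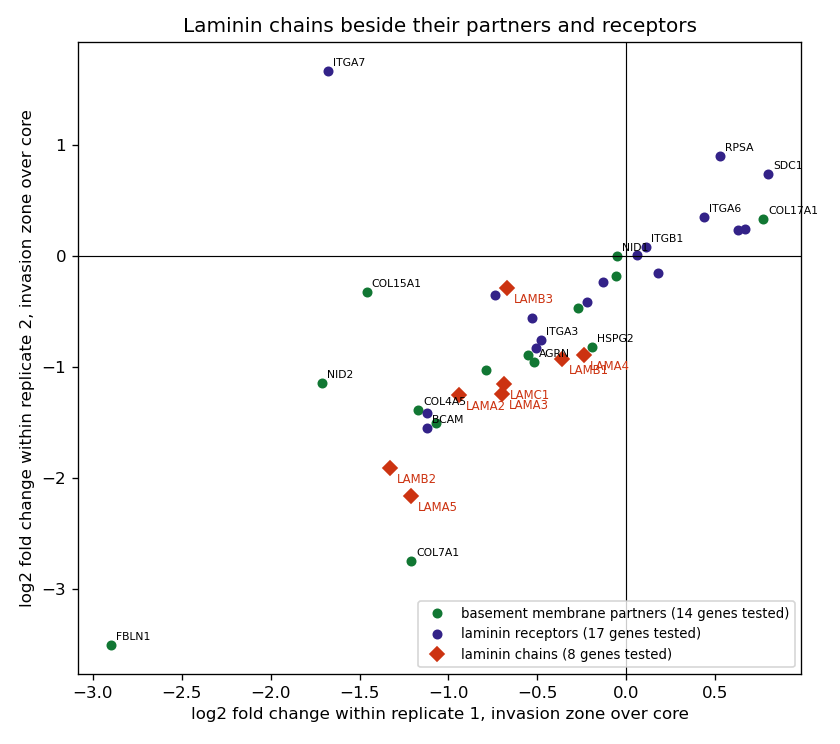
Log2 ratio of invasion zone to core within replicate 1 (horizontal) and within replicate 2 (vertical) for the 8 tested laminin chains (red), 14 basement membrane partners (green) and 17 laminin receptors (blue). The 8 chains lie in the lower left, where both replicates are below 0, and 7 of them lie lower in replicate 2, whereas ITGA6 and SDC1 lie in the upper right.

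Dystroglycan, encoded by DAG1, binds laminins through a sugar chain built by a set of dedicated enzymes. DAG1 had 135.9 and 101.5 CPM in the core and 116.6 and 76.16 CPM in the invasion zone, with overlapping groups. Of 17 genes for this glycosylation 16 were tested, and 0 were called (0.0% of all genes). At an unadjusted edgeR p below 0.05 and 2-fold, 0 were lower (6.41% of all genes) and 0 higher (3.19%). Their median log2 fold change was -0.01, from -0.86 for B4GAT1 to 0.54 for DPM2. Of 12 genes for proteases that can cut laminins or their matrix, 11 were tested and 0 were called (0.0% of all genes). At an unadjusted edgeR p below 0.05 and 2-fold, 3 were lower (6.41% of all genes), ELANE among them, and 0 higher (3.19%). The log2 fold change was negative for 9 of the 11, against 50.6% of all genes, with a median of -0.23. Both invasion zone libraries were below both core libraries for 5 of the 11 and above for 1, against 30.3% and 28.1% of all genes. The log2 fold change was highest for MMP3 (0.82, standard error 0.26). MMP2, a gelatinase, was abundant, with 1260 and 750.1 CPM in the core and 441.1 and 184.7 CPM in the invasion zone (-1.68, standard error 0.47, edgeR adjusted p = 0.128). The lowest fitted value of the list was that of ELANE, the gene of neutrophil elastase, with counts of 31 and 7 (core) and 2 and 0 (invasion zone). It passed the low-count filter only through the core, so no fold is given, and it is among the 9 negative genes and the 5 without overlap.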

How the data were processed

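Bulk RNA from 2 core and 2 invasion zone samples was sequenced. The authors removed ribosomal reads with Bowtie, aligned to hg38 with STAR and used HTSeq-count on reads with a unique position; the deposited values are raw counts per gene. For versions, annotation release and strand, nothing is given in the sources used here. Columns were matched to samples by zone and replicate number, and 2 repeated rows without counts were left out. The low-count filter of edgeR asked for 10 counts, scaled to the median library, in 2 libraries and for 15 in total. TMM scaling and the quasi-likelihood test came from edgeR 4.0.16 in R 4.3.3, with DESeq2 1.42.0 and limma 3.58.1 as alternatives. The standard error is the fold change over the root of the F statistic. Positions and transcript lengths are from GENCODE release 44 (98.1% of identifiers matched). The procedure was also run on simulated counts with the same dispersion for every gene. The real libraries need not match that setting, and no result here rests on it. Results for 1 further gene are not reported here.

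The members, lists and rules were chosen with earlier results of these data known. Named are all members, the highest and lowest tested gene of each pathway list, and the 2 genes most like the chain with the highest mean CPM of each class. The other genes named were chosen after their values were seen.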

Additional observations from a re-analysis of the deposited data

How the results depend on the processing

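The fitted log2 fold change of each of the 8 tested chains was negative under all 20 alternative settings run. The settings with an unadjusted p or with calls at any fold change reuse the main fit, so their fold changes could not differ from it. Calls at any fold change could also add no gene, as the smallest adjusted p over all genes was 0.103 (edgeR). The main numbers of called genes, 0 higher and 0 lower in the invasion zone with 0 laminin chains, were the same with other scalings, a minimum of 10 counts per library, calls at any fold change, the legacy form of edgeR, limma voom, thinning to the smallest library, and the correction for GC content and length, which was chosen after seeing the data. They were 495 higher and 995 lower genes, 3 of them laminin chains, at an unadjusted p. They were 81 and 191 with no chain without a low-count filter, and 353 and 534 with 2 chains lower in DESeq2. What caused these differences was not tested. The fits without 1 library leave a single library in 1 zone and covered 14910 to 17486 genes. Their chain counts are therefore not compared with the other settings. The median log2 fold change of the 8 chains was -0.62 without core replicate 1, against 0.018 over all genes fitted. It was -1.02 against -0.018 without core replicate 2, and -1.42 against -0.04 without invasion zone replicate 1. Without invasion zone replicate 2 it was -0.53 against -0.016. Leaving out 1 library gave between 8 and 693 higher and between 108 and 970 lower genes, with 0 to 5 chains lower: 0 without core replicate 1 or invasion zone replicate 2, 3 (LAMA2, LAMA5 and LAMB2) without core replicate 2, and 5 (the same with LAMB1 and LAMC1) if invasion zone replicate 1 was dropped, the single remaining library of that zone being taken to vary as the other zone did.

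Libraries with the same number differed from the mean of their zone in a similar way (correlation 0.584 across genes). With 2 libraries per zone, the replicate 2 deviations mirror those of replicate 1, so this is a single comparison. Libraries with the same number also shared a depth class and neighbouring library numbers in the count table. The paper's methods take the invasion zone that belonged to each punched core, but the labels do not say whether a number marks a shared spheroid or day. With the replicate block, edgeR called 588 higher and 1149 lower genes (7.4% of those tested) with 3 chains lower, LAMA2, LAMA5 and LAMB2. The block gave 428 and 750 with 3 chains in DESeq2, 575 and 1088 with 3 chains in limma voom, and 602 and 1088 with 2 chains, LAMA5 and LAMB2, together with the GC and length correction. At any fold change, 8 of 8 chains were lower at an adjusted p under 0.05 in edgeR with the block, against 20.1% of all genes.

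The change in share between the zones was 17.4 percentage points for LAMA4, -17.7 for LAMA5, 14.0 for LAMB1 and -16.8 for LAMB2, and moved by less than the spread between the replicates with the longest transcript or without length scaling. These settings did not vary GC content, for which the shares were not corrected. Low counts limit LAMA3, and LAMA1 could not be tested.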
